A study of Mus musculus with 12 samples.

Results

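The colony-stimulating factors and their receptors are described here as 8 genes, Csf1, Csf2, Csf3, Csf1r, Csf2ra, Csf2rb, Csf2rb2 and Csf3r, which are 3 ligands and 5 receptor chains. They were chosen by name, each symbol matched 1 row, and they are 8 of the 23847 rows in every table. RNA-seq was performed on bone marrow-derived macrophages (BMDMs) of wild-type C57BL/6 mice aged 8 to 12 weeks, differentiated for 6 days with L929 cell supernatant, a source of CSF1 protein that all groups shared. The 4 groups, with 3 samples each, were control cells without cytokine, cells given IL-4 at 20 ng/ml for 24 hr (IL-4), cells given LPS at 100 ng/ml, per the labels, for 3 hr (LPS), and cells given IL-4 for 24 hr before LPS was added for 3 hr (IL-4+LPS). The labels give the LPS dose per volume in ng/ml, whereas the methods of the study state it in nM. The study asked how a prior IL-4 signal alters the macrophage response to LPS, a bacterial cell wall component. The comparisons of the LPS and IL-4 groups with control use the same control samples, and those of IL-4+LPS use the same IL-4+LPS samples.

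CSF1 (M-CSF) drives the survival and differentiation of macrophages through the receptor tyrosine kinase CSF1R. CSF2 (GM-CSF) binds a specific alpha chain, CSF2RA, that pairs with the beta common chain encoded by Csf2rb, which also serves IL-3 and IL-5, and the mouse has a second beta chain, Csf2rb2, which serves IL-3 alone. CSF3 (G-CSF) acts through CSF3R and is known mainly for the production of neutrophils, and the beta chains and CSF3R signal through JAK kinases and STAT factors.

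The 300 bases around the annotated starts of 5 of the genes are printed, and these genes were not picked by their values. In the comparisons below, Csf1 and Csf3r were higher with LPS, Csf2 was above 0 FPKM in LPS-exposed samples only, and Csf2ra and Csf2rb2 were higher with IL-4. Windows of Csf3, Csf1r and Csf2rb are not printed here. The windows run from 250 bases before the start to 50 bases after it, in RefSeq's GRCm38.p6, the assembly that mm10 names, and are written 5′ to 3′ on the gene's strand. Capitals mark matches, on either strand, to 6 patterns: NF-kB (GGGANNTTCC), STAT6 (TTCNNNNGAA), STAT5 (TTCNNNGAA), AP-1 (TGANTCA), PU.1 and ETS (GAGGAAG) and C/EBP (TTGCNNAA). Csf1 lies at chr3:107760420-107760719, minus strand, Csf2 at chr11:54249850-54250149, minus strand, Csf3r at chr4:126024409-126024708, plus strand, Csf2ra at chr19:61228369-61228668, minus strand, and Csf2rb2 at chr15:78305672-78305971, minus strand.
Csf1: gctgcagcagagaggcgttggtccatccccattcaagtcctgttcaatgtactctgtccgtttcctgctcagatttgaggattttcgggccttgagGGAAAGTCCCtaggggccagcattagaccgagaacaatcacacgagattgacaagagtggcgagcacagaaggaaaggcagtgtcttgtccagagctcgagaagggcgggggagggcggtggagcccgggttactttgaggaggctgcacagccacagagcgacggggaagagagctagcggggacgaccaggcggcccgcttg
Csf2: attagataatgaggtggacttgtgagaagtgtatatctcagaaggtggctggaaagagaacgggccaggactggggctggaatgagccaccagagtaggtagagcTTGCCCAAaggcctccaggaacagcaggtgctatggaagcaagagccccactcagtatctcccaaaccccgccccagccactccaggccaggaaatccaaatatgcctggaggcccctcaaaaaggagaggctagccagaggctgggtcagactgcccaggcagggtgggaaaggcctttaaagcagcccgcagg
Csf3r: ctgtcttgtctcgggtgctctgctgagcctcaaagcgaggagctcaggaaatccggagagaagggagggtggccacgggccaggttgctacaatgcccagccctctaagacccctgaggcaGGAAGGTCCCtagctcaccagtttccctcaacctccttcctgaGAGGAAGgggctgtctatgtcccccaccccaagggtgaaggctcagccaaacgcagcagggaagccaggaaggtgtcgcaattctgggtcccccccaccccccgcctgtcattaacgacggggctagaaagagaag
Csf2ra: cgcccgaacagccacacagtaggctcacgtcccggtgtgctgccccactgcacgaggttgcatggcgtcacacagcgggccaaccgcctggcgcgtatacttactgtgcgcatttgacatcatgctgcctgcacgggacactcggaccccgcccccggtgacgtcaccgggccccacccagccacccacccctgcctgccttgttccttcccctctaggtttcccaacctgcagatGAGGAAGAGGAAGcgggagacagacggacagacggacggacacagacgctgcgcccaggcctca
Csf2rb2: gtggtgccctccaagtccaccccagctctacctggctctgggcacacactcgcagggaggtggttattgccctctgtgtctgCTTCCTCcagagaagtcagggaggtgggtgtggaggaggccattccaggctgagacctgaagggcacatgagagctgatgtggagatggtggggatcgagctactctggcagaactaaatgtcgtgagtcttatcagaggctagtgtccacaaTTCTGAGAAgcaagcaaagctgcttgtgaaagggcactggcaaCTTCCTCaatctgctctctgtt

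The Csf1 and Csf3r windows each held 1 match to the NF-kB pattern, starting at -154 and -129 from the annotated start, and 1.47% of the 32851 RefSeq windows hold one. The Csf3r window also held a PU.1 and ETS match at -86, the Csf2ra window held 2 overlapping ones at -14 and -8, and the Csf2rb2 window held 2, at -168 and at 28. The PU.1 and ETS pattern is in 13.6% of all windows. The Csf2rb2 window held a STAT5 match at -15, a pattern in 8.3% of windows, and the Csf2 window held a C/EBP match at -145, a pattern in 10.8%. No STAT6 or AP-1 match was in these 5 windows, with 6.95% and 7.81% of all windows holding one. For Csf2 the window follows the RefSeq start, while GENCODE vM21 places the start at 54249667, outside the window. The bases just before that GENCODE start were therefore not searched. The matches are letters in a window, and binding was not examined here.

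The values are FPKM, fragments mapped to a transcript scaled to its length and to the mapped total of the sample, so levels can be compared between genes. Differences are given on the scale log2(FPKM + 1), which understates changes of low genes, and a gene is said to have risen or fallen where limma gave an adjusted p under 0.05 over the 11191 rows that reached 1 FPKM in at least 1 sample. All 8 genes passed that filter. Csf2 passed only through 2 IL-4+LPS samples, and Csf3 only through 2 LPS samples and 1 IL-4+LPS sample. The macrophage markers were present in all groups, with 7 of 7 marker genes reaching 1 FPKM. Of the marker lists of other cells, the neutrophil list was the one with substantial signal: 9 of 9 genes reached 1 FPKM and their sum ran from 260 to 1180 FPKM over the samples, while the T cell, B cell, dendritic, stromal, endothelial, mast cell and erythroid lists had at most 1 gene each at 1 FPKM and sums of at most 4.36 FPKM. Relative sequencing depth ran from 0.991 to 3.30 times that of the first control sample. Replicate 1 of each group stood somewhat apart: within a group, Pearson r of the log2 values was 0.954 to 0.962 in the 8 pairs with replicate 1 and 0.973 to 0.983 in the 4 pairs without it, and results that replicate 1 decides are given with and without it. The labels do not say which animal or experiment a replicate number stands for.

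LPS exposure lowered the middle of the whole table. The median row differed by -0.444 between LPS and control, and by -0.407 between IL-4+LPS and IL-4. Scaling each sample by the median of the rows at 1 FPKM or more in every sample moved these to -0.143 and -0.124. Of the rows that passed the test in LPS against control, 22.6% were higher, against 40.0% after median scaling and 40.2% after quantile normalization, and for IL-4+LPS against IL-4 the shares were 20.6%, 39.3% and 37.1%. Small LPS differences of the receptor chains therefore depend on the scaling and are given both ways, while the comparisons with and without IL-4 at the same LPS state had all-row medians of -0.049 and -0.031.

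The ligands were the members with the lowest levels in unstimulated cells. Csf1 was low in control and IL-4 BMDMs and rose 19.6-fold with LPS, and Csf2 and Csf3 were listed at 0 in all 6 samples without LPS. With LPS after IL-4, Csf1 was higher than with LPS alone. The Csf2 values were also higher there, but Csf2 entered the test only through that group and its call was lost in several alternatives, and the Csf3 values were lower without passing the test.

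Csf1 (minus strand, chr3:107741048-107760469, mm10, protein coding), the gene of the CSF1 that these cells also received from the medium, was at 0.566, 0.564 and 0.311 FPKM in control replicates 1 to 3. It was at 1.68, 0.882 and 0.589 FPKM with IL-4, at 11.1, 9.06 and 8.15 FPKM with LPS, and at 21.2, 16.5 and 17.7 FPKM with IL-4+LPS. The 4 groups did not overlap, and the lowest LPS sample was well above the highest sample without LPS. The mean was 19.6 times the control mean with LPS, and 17.6 times the IL-4 mean with IL-4+LPS. On the log2 scale Csf1 rose by 2.81 ± 0.18 (SE, n = 3 per group) with LPS, adjusted p = 3.27e-07, and by 3.28 ± 0.18 with LPS after IL-4, adjusted p = 1.37e-07. With IL-4+LPS the mean was 1.96 times that with LPS alone, a log2 difference of 0.90 ± 0.18, adjusted p = 0.00413. IL-4 alone gave a mean 2.18 times that of control, at levels near 1 FPKM, and this did not pass the test (log2 difference 0.44, 95% interval 0.03 to 0.85, adjusted p = 0.0896), although it did after quantile normalization (0.46, adjusted p = 0.0376), with 0.1 added in place of 1 (0.91) and with a replicate block (0.44, adjusted p = 0.0108). In group means Csf1 moved from rank 11126 of 23847 rows in control to rank 4795 with LPS and 3158 with IL-4+LPS.

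Csf2 (minus strand, chr11:54247270-54249899, mm10, protein coding), which encodes GM-CSF, was listed at 0 in the 3 control and 3 IL-4 samples. LPS samples were at 0.0972, 0.499 and 0.350 FPKM, and IL-4+LPS samples at 0.506, 2.14 and 1.98 FPKM. The LPS and IL-4+LPS groups did not overlap, but the gap between their nearest samples was small, and replicate 1 was the lowest in both. After correction for relative depth, the 3 LPS values were 1, 13 and 5 times the smallest one and the 3 IL-4+LPS values 5, 27 and 39 times, each within 0.15 of a whole number, so the lowest value rests on very few fragments. The mean with IL-4+LPS was 4.88 times that with LPS alone, a log2 difference of 0.89 ± 0.24 (SE), adjusted p = 0.0162. Because Csf2 passed the filter only through IL-4+LPS replicates 2 and 3, its differences of that group from the others describe these samples. The call was lost with no filter on low values (adjusted p = 0.0516), in a fit of the compared groups only (adjusted p = 0.0925), and without LPS replicate 1 (0.76, adjusted p = 0.0579) or IL-4+LPS replicates 2 (0.70, adjusted p = 0.0656) or 3 (0.74, adjusted p = 0.0659). With a replicate block the call was kept by limma (0.89, adjusted p = 0.0077). Against IL-4 alone the difference was 1.27 ± 0.24, adjusted p = 0.000651. LPS against control gave 0.38 ± 0.24, which did not pass the test in all 12 samples (adjusted p = 0.164), and gave 0.51 ± 0.08 in replicates 2 and 3 only, adjusted p = 0.000755. That smaller set has 2 samples per group, and its SE is shared with groups at exact 0. In 12% of its exonic bases Csf2 overlaps exons of Gm12223 on the opposite strand, and the libraries did not mark strand.

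Csf3 (plus strand, chr11:98701313-98703629, mm10, protein coding), which encodes G-CSF, was also listed at 0 in the 6 samples without LPS. It was at 0.486, 2.23 and 2.60 FPKM with LPS, and at 0, 1.19 and 0.727 FPKM with IL-4+LPS. Replicate 1 was again the lowest in both groups, and the groups overlapped, although within each replicate number the IL-4+LPS sample was the lower one. Csf3 rose with LPS by 1.37 ± 0.33 (SE), adjusted p = 0.00324. Because Csf3 passed the filter only through LPS-exposed samples, differences that involve those groups describe these samples. With LPS after IL-4 the difference from IL-4 alone was 0.64 ± 0.33 and did not pass the test, adjusted p = 0.104. The difference between IL-4+LPS and LPS was -0.73 (95% interval -1.47 to 0.00), adjusted p = 0.124. In replicates 2 and 3 only, with 2 samples per group, it was -0.81 ± 0.12 and passed the test, adjusted p = 0.00218, as did the difference from IL-4 alone, 0.96 ± 0.12, adjusted p = 0.000354. The spread in these fits is shared with groups at exact 0, so these SEs do not measure that of LPS-exposed samples alone. A fit of the compared groups only gave -0.73 ± 0.44 for IL-4+LPS against LPS, adjusted p = 0.284. For Csf2 and Csf3, values in samples without LPS are exact zeros, so no fold against them is given and the log2 differences depend on the added 1. With 0.1 added in its place, the differences of LPS from control were 1.91 for Csf2 and 3.95 for Csf3, and both passed the test.

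**Figure D1:**
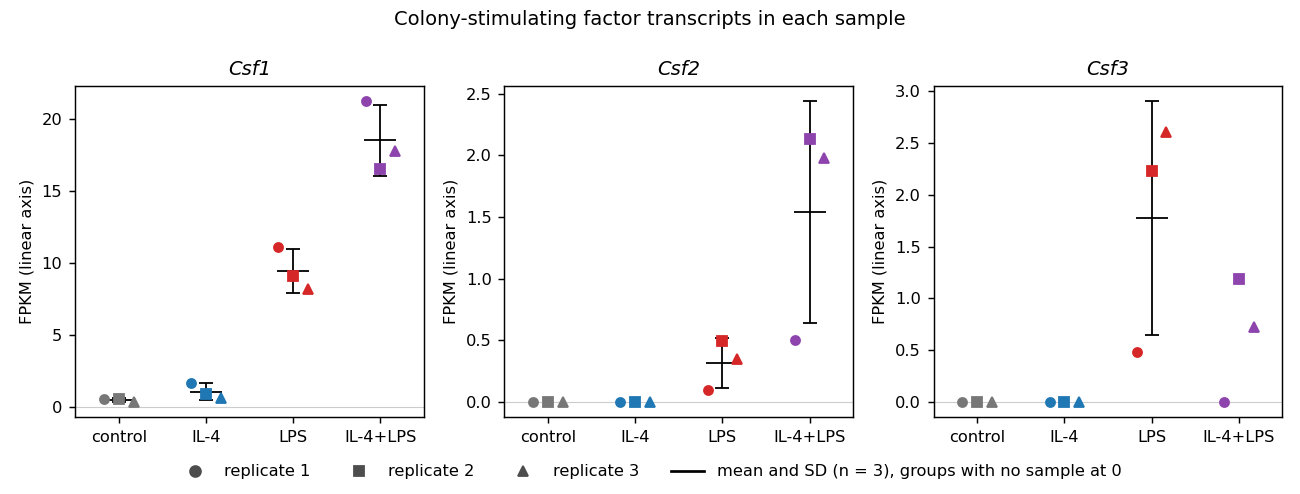
FPKM of Csf1, Csf2 and Csf3 (vertical axes, linear) in each of the 12 samples by group, with the mean and SD drawn for groups that have no sample at 0. Csf1 was at 16.5 to 21.2 FPKM with IL-4+LPS against 8.15 to 11.1 with LPS, Csf2 and Csf3 were listed at 0 without LPS, and replicate 1 (circles) was the lowest sample for both in each LPS-exposed group.

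The receptor chains were abundant without any stimulus. In control cells the order of the mean levels was Csf1r, Csf2ra, Csf2rb, Csf2rb2 and Csf3r, with Csf2rb and Csf2rb2 overlapping. IL-4 raised the GM-CSF alpha chain and both beta chains, by 1.48 to 2.60 times, and lowered Csf1r. LPS raised Csf3r 2.02 times, and its effect on the other receptor chains was small and depended on the scaling.

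Csf1r (plus strand, chr18:61105572-61131139, mm10, protein coding), the receptor of CSF1, was at 932, 888 and 906 FPKM in control, which put its mean at rank 53 of all rows. It was at 604, 657 and 625 FPKM with IL-4, at 747, 576 and 584 FPKM with LPS, and at 546, 411 and 449 FPKM with IL-4+LPS. All control samples were above all others, all IL-4+LPS samples were the lowest, and the IL-4 and LPS groups overlapped. IL-4 lowered Csf1r to 0.692 times the control mean, a log2 difference of -0.53 ± 0.12 (SE), adjusted p = 0.00569. With IL-4+LPS it was 0.737 times the LPS mean, -0.44 ± 0.12, adjusted p = 0.0173, and that call was lost with no filter (adjusted p = 0.0531), in a fit of the compared groups only (adjusted p = 0.0959), and without LPS replicate 1 (-0.32, adjusted p = 0.0544) or IL-4+LPS replicates 2 (-0.35, adjusted p = 0.069) or 3 (-0.41, adjusted p = 0.0593). With a replicate block the call of IL-4+LPS against LPS was kept by limma (adjusted p = 0.0064). LPS against control gave 0.699 times and -0.53 ± 0.12, adjusted p = 0.00211, which is near the median row of -0.444. After median scaling this was -0.16, adjusted p = 0.227, and 44.6% of all rows had a lower difference than Csf1r. Against IL-4, IL-4+LPS gave -0.43 ± 0.12, adjusted p = 0.00723, and -0.07 after median scaling, adjusted p = 0.606. In 15.1% of its exonic bases Csf1r overlaps Hmgxb3 on the opposite strand.

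Csf2ra (minus strand, chr19:61224402-61228418, mm10, protein coding), the GM-CSF-specific alpha chain, was at 125, 133 and 116 FPKM in control and at 186, 181 and 187 FPKM with IL-4. It was at 95.1, 108 and 97.4 FPKM with LPS and at 145, 184 and 169 FPKM with IL-4+LPS. The samples with IL-4 were above all samples without it, at either LPS state. IL-4 raised Csf2ra by 0.56 ± 0.09 (SE), a ratio of means of 1.48, adjusted p = 0.000875. Among LPS-exposed cells the difference was 0.72 ± 0.09, a ratio of 1.66, adjusted p = 0.000185. LPS against control gave -0.32 ± 0.09, adjusted p = 0.0086, but 0.05 after median scaling, adjusted p = 0.69, so that its direction turned with the scaling. LPS after IL-4 gave -0.16 ± 0.09, adjusted p = 0.137, with 0.20 after median scaling and -0.32 after quantile normalization, adjusted p = 0.00216 for the last.

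Csf2rb (plus strand, chr15:78325990-78351001, mm10, protein coding), the beta common chain, was at 75.5, 73.7 and 74.0 FPKM in control and at 191, 207 and 182 FPKM with IL-4. LPS samples were at 82.7, 85.9 and 85.1 FPKM and IL-4+LPS samples at 153, 133 and 155 FPKM. The 4 groups did not overlap, and the order from low to high was control, LPS, IL-4+LPS and IL-4. The mean with IL-4 was 2.60 times control, a log2 difference of 1.37 ± 0.07 (SE), adjusted p = 4.37e-07, higher than in 98.0% of rows. With LPS the ratio of IL-4+LPS to LPS was 1.74, a difference of 0.79 ± 0.07, adjusted p = 1.83e-05. LPS alone gave 0.18 ± 0.07, adjusted p = 0.0389, a call lost with quantile normalization (0.07), with no filter, in replicates 2 and 3 only, in a per-gene Tukey test and when any 1 control or LPS sample was left out, while median scaling gave 0.55, adjusted p = 5.77e-05. LPS after IL-4 gave -0.39 ± 0.07, adjusted p = 0.000567, and -0.03 after median scaling, adjusted p = 0.732.

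Csf2rb2 (minus strand, chr15:78282510-78305603, mm10, protein coding), the IL-3-specific beta chain, lies beside Csf2rb and was at 78.6, 65.5 and 66.0 FPKM in control and at 143, 145 and 126 FPKM with IL-4. It was at 69.2, 65.3 and 63.2 FPKM with LPS and at 128, 113 and 118 FPKM with IL-4+LPS. The IL-4 samples were above those without IL-4 at either LPS state, and the control and LPS samples overlapped. IL-4 raised it by 0.97 ± 0.09 (SE), a ratio of 1.97, adjusted p = 1.74e-05, and by 0.85 ± 0.09 among LPS-exposed cells, a ratio of 1.81, adjusted p = 4.97e-05. LPS gave -0.08 ± 0.09 against control, adjusted p = 0.415, but 0.28 after median scaling, adjusted p = 0.0192, so that the direction turned and the call was made. LPS after IL-4 gave -0.21 ± 0.09, adjusted p = 0.0565, with 0.16 after median scaling and -0.30 after quantile normalization, adjusted p = 0.0375 for the last, and the difference was called with a replicate block (adjusted p = 0.0112). It was also called in replicates 2 and 3 only (-0.23, adjusted p = 0.0197), with 2 samples per group. Leaving out control replicate 1 (adjusted p = 0.0277), IL-4+LPS replicate 1 (0.0378) or IL-4 replicate 3 (0.028) gave the call as well.

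The 2 beta chain transcripts are close copies, and 7.2% of the 100-base words of the longest Csf2rb2 transcript also occur in Csf2rb transcripts (6.96% in the other direction), with 19.0% and 18.4% at 50 bases. How fragments from shared stretches were divided between them is not stated, so each gene's values are uncertain to that extent. The ratio of Csf2rb to Csf2rb2 was 0.96, 1.13 and 1.12 in control, 1.34, 1.42 and 1.45 with IL-4, 1.20, 1.31 and 1.35 with LPS, and 1.20, 1.17 and 1.32 with IL-4+LPS. All IL-4 and all LPS samples were above all control samples, and the IL-4+LPS samples were below the IL-4 samples. An exact two-sided permutation test gave p = 0.1 for IL-4 against control, for LPS against control and for IL-4+LPS against IL-4, and p = 0.5 for IL-4+LPS against LPS, where 0.1 is the smallest p that 3 samples against 3 can give.

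**Figure D2:**
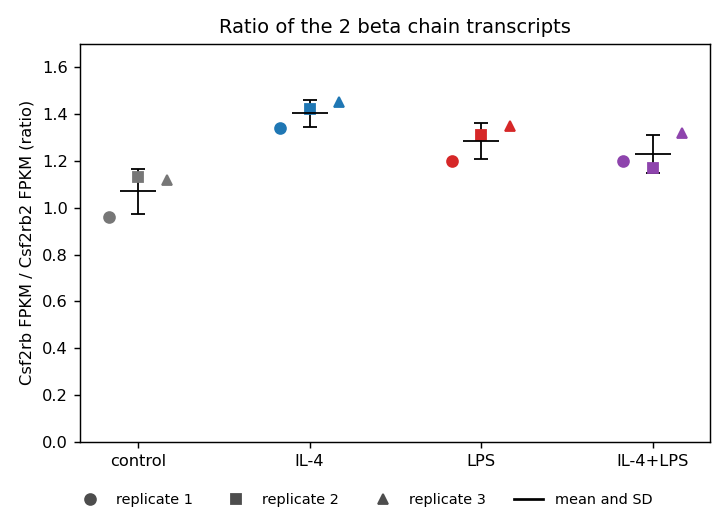
Ratio of Csf2rb to Csf2rb2 FPKM (vertical axis, no unit, starting at 0) in each sample by group, with the mean and SD of 3 samples. Control samples sit at 0.96 to 1.13 and IL-4 samples at 1.34 to 1.45.

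Csf3r (plus strand, chr4:126024659-126044975, mm10, protein coding), the G-CSF receptor, was at 27.4, 20.9 and 18.5 FPKM in control and at 27.4, 20.4 and 18.9 FPKM with IL-4. It was at 44.7, 46.5 and 43.6 FPKM with LPS and at 54.7, 52.1 and 44.6 FPKM with IL-4+LPS. Every LPS-exposed sample was above every sample without LPS, and the control and IL-4 samples overlapped. Csf3r rose with LPS by 1.00 ± 0.16 (SE), a ratio of 2.02, adjusted p = 0.00018, and with LPS after IL-4 by 1.16 ± 0.16, a ratio of 2.27, adjusted p = 7.09e-05. Both calls were kept after median scaling, at 1.36 and 1.51. IL-4 gave no called difference, with 0.00 (95% interval -0.35 to 0.35) in cells without LPS and 0.16 (95% interval -0.19 to 0.51) in cells with LPS. The summed neutrophil markers were at 392 to 984 FPKM in control, 260 to 469 with IL-4, 578 to 1180 with LPS and 488 to 957 with IL-4+LPS. Their lowest sample was replicate 1 in each group, where Csf3r was the highest or within the range of the other 2 samples. Within the neutrophil list, S100a8 and S100a9 had the highest means, at 258 and 299 FPKM in control and 340 and 409 FPKM with LPS. The means of Camp, Ltf and Ngp were also higher with LPS than in control, and those of Elane, Mpo, Mmp8 and Retnlg were lower. With IL-4 the mean of Mmp8 was higher than in control, and the other means of the list were lower. The part of neutrophil RNA in the Csf3r values was not tested.

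**Figure D3:**
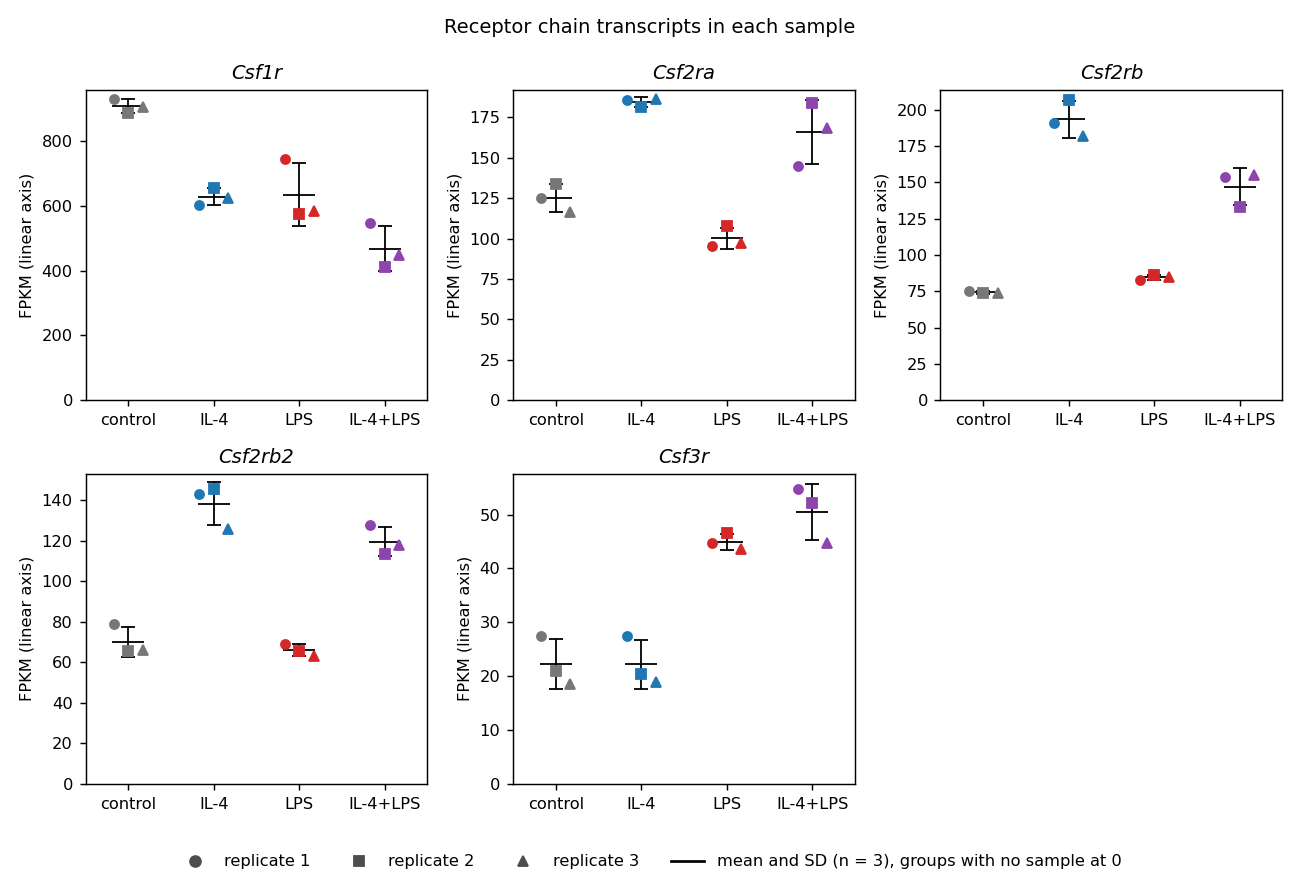
FPKM of the 5 receptor chains (vertical axes, linear, starting at 0) in each of the 12 samples by group, with mean and SD. IL-4 samples are above control for Csf2ra, Csf2rb and Csf2rb2 and below it for Csf1r, and LPS-exposed samples are above the others for Csf3r, at 43.6 FPKM or more.

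Counted over the 8 genes, LPS against control gave 4 higher (Csf1, Csf3, Csf2rb and Csf3r) and 2 lower (Csf1r and Csf2ra), where 16.9% of the 11191 rows were called higher and 57.7% lower. After median scaling 5 were higher and 0 lower by limma. IL-4 against control gave 3 higher (Csf2ra, Csf2rb and Csf2rb2) and 1 lower (Csf1r), where 16.0% of rows were called higher and 21.0% lower. IL-4+LPS against IL-4 gave 3 higher (Csf1, Csf2 and Csf3r) and 2 lower (Csf1r and Csf2rb), with 15.0% and 57.9% of rows. IL-4+LPS against LPS gave 5 higher (Csf1, Csf2, Csf2ra, Csf2rb and Csf2rb2) and 1 lower (Csf1r), with 15.0% and 15.8% of rows. Because Csf2 and Csf3 entered the test through the LPS-exposed groups, these counts describe the genes and are not set against the shares as evidence.

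**Figure D4:**
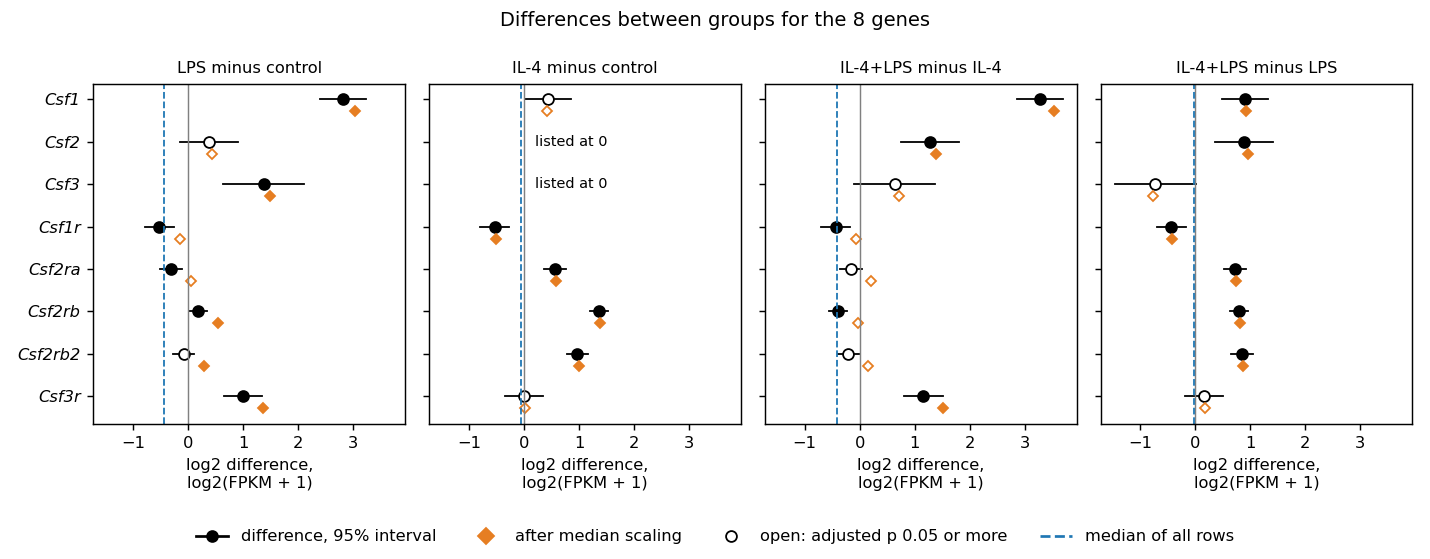
Difference of log2(FPKM + 1) (horizontal axes) with 95% intervals for the 8 genes in 4 comparisons, as circles, and after median scaling, as diamonds, where open symbols have an adjusted p of 0.05 or more and the dashed line is the median of all rows. The LPS comparisons have dashed lines at -0.444 and -0.407, near the Csf1r values of -0.53 and -0.43, and the diamonds of the receptor chains lie to the right of the circles.

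The interaction asks whether the LPS response differed between IL-4-pretreated and untreated cells, as the LPS difference after IL-4 minus the LPS difference without it. Csf2rb passed the test and was lower, as 1 of 8 genes, and 0 genes were higher by limma (1 at an unadjusted p under 0.05, Csf2), where 4.58% of rows were called higher and 4.63% lower. Its LPS difference was 0.18 without IL-4 and -0.39 after it, an interaction of -0.58 ± 0.10 (SE), adjusted p = 0.00566, and -0.58 after median scaling, adjusted p = 0.00581. This call was made in all 7 alternatives and in all 12 fits that left out 1 sample. The neighbouring Csf2rb2 gave -0.12 (95% interval -0.40 to 0.15), and the difference between the 2 interactions was not tested. Csf1r, Csf2ra and Csf3r gave 0.09, 0.16 and 0.16, with adjusted p of 0.793, 0.516 and 0.726. Of the ligands, Csf1 gave 0.46 (95% interval -0.12 to 1.05, adjusted p = 0.328), Csf2 0.89 (0.15 to 1.63, adjusted p = 0.133) and Csf3 -0.73 (-1.77 to 0.31, adjusted p = 0.398). In replicates 2 and 3 only, all 3 passed the test, with 0.64 for Csf1 (adjusted p = 0.0395), 1.10 for Csf2 (adjusted p = 0.00109) and -0.81 for Csf3 (adjusted p = 0.018). That set has 2 samples per group and called more rows in general. Of 11191 rows, 1481 were higher and 1386 lower, against 512 and 518 in 12 samples. Csf2 and Csf3 were at 0 in all samples without LPS, so their interaction holds no more than their difference between IL-4+LPS and LPS, and Csf2 entered the test through these same IL-4+LPS samples. With 0.1 added in place of 1, the 12-sample interaction of Csf1 was 0.06, and those of Csf2 and Csf3 were 1.91 and -1.71, none of them called.

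**Figure D5:**
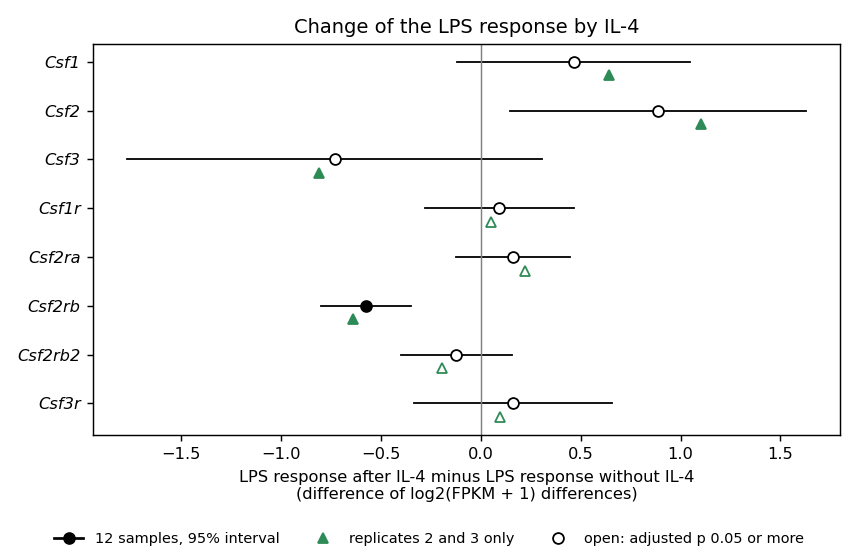
Interaction, the LPS difference after IL-4 minus that without IL-4 on the log2(FPKM + 1) scale (horizontal axis), for the 8 genes in 12 samples with 95% intervals (circles) and in replicates 2 and 3 only (triangles), with open symbols at an adjusted p of 0.05 or more. Csf2rb is at -0.58 in 12 samples and -0.64 in the smaller set, and of these sets the 3 ligands pass in the smaller one. Csf2 passed the filter only through the IL-4+LPS samples of that smaller set. The spread of Csf2 and Csf3 is shared with groups at exact 0.

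Over the 12 samples the 8 genes fell into patterns, given here as correlations of log2(FPKM + 1) that all rest on the same 12 libraries and on 4 group levels. Csf2ra, Csf2rb and Csf2rb2 ran together (Pearson r 0.85 to 0.97), as did Csf1 and Csf3r (0.96), and Csf1r ran against all other members (-0.44 to -0.83). The rows most like Csf1 were Irf1 (0.994), Rel (0.992) and Olr1 (0.992), an interferon regulatory factor, an NF-kB subunit and a scavenger receptor. Irf1 had mean levels of 39.7, 55.3, 474 and 822 FPKM in the control, IL-4, LPS and pretreated LPS groups. Csf2 was most like Il23a (0.991), a subunit of the cytokine IL-23, and also like Gm14047 (0.979), and Csf3 was most like Pdpn (0.986), Steap4 (0.984) and Tha1 (0.976). Il23a rose from a mean of 0.555 FPKM with LPS to 10.9 with IL-4+LPS, whereas Pdpn was at 13.7 and 5.01 FPKM.
Among the receptor chains, Csf2rb was most like Pdcd1lg2 (0.985), Cldn11 (0.985) and Tmem26 (0.984), and Csf2rb2 most like Cldn11 (0.989), Arg1 (0.988) and Pdcd1lg2 (0.983). Arg1, the arginase used as a marker of IL-4-treated macrophages, had mean levels of 33.5 FPKM with IL-4 and 18.2 FPKM with IL-4 before LPS. Csf2ra was most like Chchd10 (0.981), Atp5j (0.976) and Ndufa1 (0.973), Csf1r most like Bnip2 (0.988), Slc40a1 (0.980) and Arrb2 (0.978), and Csf3r most like AW112010 (0.984), C130026I21Rik (0.982) and Gbp3 (0.977).

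Among other ligands and receptor chains of these pathways, Il34, the second ligand of CSF1R, was listed at 0 in all samples without LPS and had means of 1.49 FPKM with LPS and 1.14 with IL-4+LPS. Its log2 difference was 1.26 ± 0.28 (SE) with LPS, adjusted p = 0.00205, and 1.02 ± 0.28 with LPS after IL-4, adjusted p = 0.00776. Il34 passed the filter only through LPS-exposed samples, in which its highest value was 2.17 FPKM, and the size of these differences depends on the added 1. Il3ra, the IL-3 alpha chain, was at 38.6 ± 4.8 FPKM (SD, n = 3) in control and 30.5 ± 3.1 with LPS, a log2 difference of -0.33, adjusted p = 0.0172, which was not called after median scaling. With IL-4 it was at 34.3 FPKM, a log2 difference from control of -0.16 that did not pass the test, adjusted p = 0.283. Il3 was listed at 0 in every sample, and Il5, Il5ra, Flt3 and Kit, of the IL-5 and stem cell factor pathways or their FLT3 relative, were at 0.289 FPKM or less in every sample and were not tested.

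Of 10 kinases and STATs that signal from these receptors, 8 were higher and 1 lower with LPS, and 1 was higher and 2 lower with IL-4. Of all rows, 16.9% were called higher and 57.7% lower with LPS, and 16.0% and 21.0% with IL-4. The median difference of the list was 1.29 with LPS and -0.24 with IL-4, beside -0.444 and -0.049 over all rows. Src went from a mean of 2.91 to 86.9 FPKM with LPS (log2 difference 4.43, adjusted p = 4.44e-07), and Jak2, the kinase bound to the GM-CSF beta chain, from 8.95 to 164 FPKM (4.05, adjusted p = 4.16e-09). IL-4 raised Jak2 to 22.0 FPKM (1.21, adjusted p = 7.72e-05). The LPS response of Jak2 and of Lyn was smaller after IL-4, with interactions of -1.20 (adjusted p = 0.00341) and -0.64 (adjusted p = 0.00323), as 2 of 3 genes of the list that passed that test. Over all rows, 4.58% were called higher and 4.63% lower in the interaction. Jak2 reached 166 FPKM with IL-4+LPS, a difference of 0.01 from LPS alone (95% interval -0.29 to 0.31).

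Of 15 adaptors and signal enzymes, 3 were higher and 11 lower with LPS (3 and 7 after median scaling), and 2 were higher and 9 lower with IL-4. The shares of all rows were 16.9% higher and 57.7% lower with LPS, and 16.0% and 21.0% with IL-4. The median of the list with LPS, -0.54, was near the -0.444 of all rows, and with IL-4 it was -0.33 beside -0.049. The lipid phosphatase gene Inpp5d fell from 79.3 to 8.73 FPKM (-3.07, adjusted p = 8.89e-07) and Gab3, an adaptor of CSF1R signaling, from 4.10 to 0.236 FPKM (-2.05, adjusted p = 1.96e-07) with LPS. With IL-4 Gab3 fell to 1.33 FPKM (-1.15, adjusted p = 6.22e-05) and Dok2 rose from 56.1 to 119 FPKM (1.09, adjusted p = 0.000724). The interactions of Gab3 (0.93, adjusted p = 0.00849) and Dok1 (0.93, adjusted p = 0.0031) were among 3 higher ones, with 1 lower. Of all rows, 4.58% were called higher and 4.63% lower in the interaction. Gab3 was at 0.0632 FPKM with IL-4+LPS, so its interaction rests on the added 1 and does not show a smaller fold change after IL-4.

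Of 12 feedback genes and targets, 7 were higher and 3 lower with LPS, and 7 were higher and 1 lower with IL-4, where 16.9% and 57.7% of all rows were called with LPS and 16.0% and 21.0% with IL-4. Medians of the list were 2.93 with LPS and 0.80 with IL-4, and 3 of the 7 higher genes in each comparison are Bcl2a1 copies. Socs3, an inhibitor of cytokine receptor signaling, went from 0.869 to 523 FPKM (8.05, adjusted p = 1.9e-07) and Bcl2a1d from 6.65 to 488 FPKM (6.00, adjusted p = 1.03e-08) with LPS, although the Bcl2a1 genes are near-identical copies and their split is uncertain. Cish, an inhibitor induced by STAT5, rose with IL-4 from 0.709 to 20.7 FPKM (3.64, adjusted p = 0.000204) and Socs2 from 0.0817 to 2.76 FPKM (1.80, adjusted p = 2.76e-07). Myc and Socs2 had interactions of -1.33 (adjusted p = 0.00585) and -0.92 (adjusted p = 0.00141), the 2 of the list that passed, where 4.58% of all rows were called higher and 4.63% lower. Of the 2 shedding proteases, Adam17, known to cleave CSF1R from the surface, rose from 72.4 to 132 FPKM with LPS (0.85, adjusted p = 0.000115) and Adam10 fell from 32.9 to 19.4 FPKM (-0.74, adjusted p = 0.000752).

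Of 7 transcription factors known to act on receptor genes of this kind, 4 were higher and 3 lower with LPS, and 0 were higher and 1 lower with IL-4 by limma, beside the same shares of all rows, 16.9% and 57.7% with LPS and 16.0% and 21.0% with IL-4. The median of the list was 1.51 with LPS and 0.08 with IL-4. Gfi1, a repressor, went from 0.138 to 7.03 FPKM (2.78, adjusted p = 1.38e-05) and Cebpa from 70.2 to 11.2 FPKM (-2.65, adjusted p = 3.73e-05) with LPS. Irf8 was the one that fell with IL-4, from 79.5 to 47.4 FPKM (-0.74, adjusted p = 0.00378). Its LPS response turned with IL-4, from 32.0 FPKM with LPS to 179 with IL-4+LPS (interaction 3.17, adjusted p = 2.62e-05), and Runx1 had an interaction of -1.22 (adjusted p = 0.000229), going to 3.33 FPKM with IL-4+LPS. Spi1, which encodes PU.1, was listed as Sfpi1 and rose with LPS from a mean of 239 to 681 FPKM.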

How the data were processed

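RNA-seq of 12 BMDM samples was used, poly-A selected in TruSeq libraries that do not mark strand. The deposited values are FPKM per gene, which the authors made with TopHat2 2.0.7 and Cufflinks 2.0.2 on mm10, per the submitters' processing notes; the annotation and per-sample read totals are not given in the sources used here. Files give no counts, so relative depth was read from the steps of low FPKM values (up to 0.2) in each sample. In 54 of 55 other sample pairs, steps agreed within 0.5% with it.

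log2(FPKM + 1) values of 11191 rows with at least 1 FPKM in at least 1 sample were fitted with limma 3.58.1 (trend) in R 4.3.3 over all 12 samples, with Benjamini-Hochberg adjustment over all rows of a comparison and a threshold of 0.05. The step was tested on simulated data. Gene positions are those of the files with the first base counted as 1, and biotypes, overlaps and shared words are from GENCODE vM21. Promoters are from RefSeq. Python 3.11.15 and matplotlib 3.10.9 were used.

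Members, marker lists and pathway lists were chosen with earlier results of these data known. Named from each pathway list were up to 2 called genes with the largest change in LPS against control, in IL-4 against control and in the interaction, with Spi1 added after its value was seen; the list of other ligands and chains was named in full. The rows most like a member were the 3 of highest Pearson r over 12 samples among 10541 rows with 1 FPKM in at least 3 samples. Spi1 and Adgre1 were found by their synonyms, and Ly6g was not matched. Some genes that these rules name are not reported here.

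The study describes these data as 3 animals from 2 experiments, so the 4 groups would share animals. The labels tie no number to an animal or experiment, so the 12 samples were fitted as separate and p-values measure the spread between these samples. Same-numbered samples deviated together, with every correlation over 0.1, a chosen cut, for IL-4+LPS against LPS (0.386, 0.181 and 0.119). This was taken as pairing in that comparison, from the correlations and not from the labels. SEs and p-values printed for it are nevertheless from fits without a block, unless a block is named. A replicate block there raised the rows called from 1682 higher and 1771 lower to 2287 and 2667 and changed no member's call. In the other comparisons at least 1 pair was at 0.1 or below. Alternatives were another pseudocount (0.1), other filters, quantile normalization, median scaling, a fit of compared groups only, a replicate block, replicates 2 and 3 only, a per-gene Tukey test with no adjustment across genes, and each sample left out.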

Additional observations from a re-analysis of the deposited data

Results flagged for a closer look

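The LPS response of Csf2rb, the beta common chain, differed between cells with and without IL-4 pretreatment by a test of the difference itself. Its interaction was -0.576 on the log2(FPKM + 1) scale (limma, adjusted p = 0.00566), with means of 74.4 and 84.6 FPKM in control and LPS and of 193 and 147 FPKM in IL-4 and IL-4+LPS.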

How the results depend on the processing

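Of 339 results of a member under an alternative, 310 kept their side of the threshold and, where called, their direction. The same held for 458 of 480 with 1 sample left out. Turns of direction without a call count as kept, such as Csf2ra (0.204) and Csf2rb2 (0.156) in IL-4+LPS against IL-4 under median scaling. Directions that turned with a call were 2, both under median scaling in LPS against control: Csf2ra at 0.050 and Csf2rb2 at 0.283. Median scaling also left 0 members called lower in LPS against control and 0 in IL-4+LPS against IL-4 (limma, against 2 and 2), and quantile normalization gave 4 lower in the latter. In IL-4+LPS against LPS, 0 members were lower with no filter and 0 in a fit of the compared groups only (limma, 1 in the 12-sample fit, Csf1r), 2 were lower in replicates 2 and 3 only, and leaving out 1 sample gave 0 to 1. In the interaction, replicates 2 and 3 only gave 2 higher and 2 lower, and leaving out 1 sample gave 0 to 1 higher. Over all rows, replicates 2 and 3 only called 1481 higher and 1386 lower in the interaction, against 512 and 518 in 12 samples. In IL-4+LPS against LPS that set called 2351 and 2901, against 1682 and 1771. Csf2 was not tested where 1 FPKM in at least 3 samples was asked for. The labels do not tie same-numbered samples together in any comparison. Over all groups, 9 of 12 samples correlated best with their own number, a count that includes the pairs of IL-4+LPS with LPS. In the comparisons other than IL-4+LPS against LPS, same-number correlations were also positive but as low as 0.013. Pairing there is therefore not settled. A replicate block there gave calls to Csf1 in IL-4 against control (0.439, adjusted p = 0.0108) and Csf2rb2 in IL-4+LPS against IL-4 (-0.206, adjusted p = 0.0112), and moved the rows called in the interaction from 512 higher and 518 lower to 1145 and 1095; it changed no other member's call. The cause of these changes was not tested. Fragment totals are unknown, so no interval for counting error is given, and values under about 1 FPKM are the least precise.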
